A study of Rattus norvegicus with 12 samples.

Results

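The genes described here encode the subunits of the oxidative phosphorylation system, measured in the hypothalamic arcuate nucleus (ARC) of adult rats. Members were probe sets whose single gene symbol in the platform annotation began with Ndufa, Ndufb, Ndufc, Ndufs or Ndufv (complex I), was Sdha, Sdhb, Sdhc or Sdhd (complex II), or began with Uqcr (complex III), Cox4 to Cox8 (complex IV) or Atp5 (complex V). Each transcript is read on the array by a probe set of several short probes, and a gene with more than 1 probe set was represented by the one with the highest mean over all 12 arrays. This gave 86 genes of the 14217 with a symbol of their own, out of 31042 probe sets tested. There were 42 genes in complex I, 4 in complex II, 7 in complex III, 17 in complex IV and 16 in complex V. By symbol, the rule also took 10 genes that are not subunits: 6 assembly factors of complex I (Ndufaf), Ndufa4l2, the pseudogene Cox6c-ps1, Cox7a2l and the ATP synthase inhibitor Atp5if1. A further 7 probe sets whose annotation lists several symbols were left out.

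The nucleus was cut out of stained brain sections with a microscope laser (laser capture) from 6 recuperated and 6 control male Wistar rats at 3 months of age, with 1 animal on each array. Recuperated animals were born to dams on a low-protein diet (8% protein) but were nursed by control dams, whereas control animals were the offspring of control dams, and the groups were set up on postnatal day 3. Both groups then ate standard chow. The comparison asks whether growth restriction before birth followed by fast growth in suckling left a mark on ARC gene expression in adult life. Recuperated litters were also culled to a smaller size than control litters, so the effects of diet and litter size cannot be told apart. Values are log2 expression above the median of the array, and a difference of 0.38 on this scale is 1.3-fold.

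Oxidative phosphorylation couples the oxidation of fuel to the synthesis of ATP in the inner mitochondrial membrane. Complexes I and II pass electrons from NADH and succinate to ubiquinone, complex III passes them on to cytochrome c and complex IV to oxygen, and complexes I, III and IV pump protons that drive complex V, the ATP synthase. Neurons depend on this pathway to restore ion gradients after firing. Nearly all subunits are encoded in the nucleus, and several complex IV subunits exist as a widely used form and as a form typical of muscle, heart, lung or testis.

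Promoters are shown first because they hold what many of these genes share apart from their symbols. RefSeq promoters on the rat build GRCr8, from 250 bases before to 50 after the annotated start, were matched by gene ID to 78 of the 86 genes. They were searched on both strands for 4 motifs that are textbook elements of mitochondrial genes or of housekeeping promoters: the core of the Nrf1 site (CGCANGCG), the ETS site bound by GABP (CCGGAAG), the Yy1 site (GCCATNTT) and the Sp1 box (GGGCGG). The 4 promoters below were chosen as a core subunit with repeated Nrf1 letters (Sdha), a complex IV isoform pair (Cox8a, widely used, and Cox8b, the muscle form) and the gene with the largest difference between the groups (Cox7a1), with every match in capitals.
Sdha, chr1:30764303-30764602, plus strand: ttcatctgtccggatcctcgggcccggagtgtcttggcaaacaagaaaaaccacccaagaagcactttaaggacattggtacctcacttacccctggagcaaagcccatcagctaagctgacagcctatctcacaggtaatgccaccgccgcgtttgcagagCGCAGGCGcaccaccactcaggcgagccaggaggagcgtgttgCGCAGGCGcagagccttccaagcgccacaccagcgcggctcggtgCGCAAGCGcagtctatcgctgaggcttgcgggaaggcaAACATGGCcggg
Cox8a, chr1:213833574-213833873, minus strand: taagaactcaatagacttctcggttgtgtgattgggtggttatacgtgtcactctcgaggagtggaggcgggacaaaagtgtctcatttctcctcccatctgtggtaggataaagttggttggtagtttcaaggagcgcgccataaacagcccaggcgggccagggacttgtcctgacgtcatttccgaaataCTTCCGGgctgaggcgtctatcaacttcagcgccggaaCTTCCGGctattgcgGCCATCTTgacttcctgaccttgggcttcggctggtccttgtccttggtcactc
Cox8b, chr1:205408224-205408523, minus strand: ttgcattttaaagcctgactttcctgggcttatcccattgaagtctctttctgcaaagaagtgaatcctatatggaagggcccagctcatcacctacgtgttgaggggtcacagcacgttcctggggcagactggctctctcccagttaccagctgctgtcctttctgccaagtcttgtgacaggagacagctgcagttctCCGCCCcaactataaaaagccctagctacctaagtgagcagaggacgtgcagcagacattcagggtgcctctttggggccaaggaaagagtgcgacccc
Cox7a1, chr1:94568966-94569265, plus strand: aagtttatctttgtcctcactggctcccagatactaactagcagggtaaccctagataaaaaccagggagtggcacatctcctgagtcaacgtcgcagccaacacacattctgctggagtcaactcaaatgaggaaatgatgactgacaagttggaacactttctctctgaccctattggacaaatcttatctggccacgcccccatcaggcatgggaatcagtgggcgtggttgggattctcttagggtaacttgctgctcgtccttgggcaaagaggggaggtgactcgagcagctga
The Sdha window held 3 matches to the Nrf1 core and 1 to the Yy1 site, that of Cox8a held 2 ETS matches and 1 Yy1 match, that of Cox8b held 1 Sp1 box, and that of Cox7a1 held none of these letters. No match says only that the letters are not in this window.

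Yy1 letters were present in 32 of the 78 promoters (41.0%), against 769 of the 6428 promoters of all genes above the array median on all arrays and 7.36% of the 27457 promoters in the table. The Nrf1 core was present in 25 (32.1%), against 19.7% and 8.23%, and the ETS site in 22 (28.2%), against 19.8% and 9.22%. The Sp1 box was present in 34 (43.6%), which was below the 65.5% of the genes above the array median and above the 34.9% of all promoters. The complexes differed in the Nrf1 core, which was found in 9 of 15 promoters of complex V (60.0%), 11 of 40 of complex I (27.5%), 2 of 6 of complex III, 2 of 4 of complex II and 1 of 13 of complex IV (7.69%). At least 1 of the Nrf1, ETS and Yy1 motifs was present in 56 of the 78 promoters, a share that was not computed for other genes. A pair of matches overlapped in 1 promoter. Of the 6 members with a promoter that were not above the array median on every array, 0 held the Nrf1 core, 0 the ETS site, 2 the Yy1 site and 3 the Sp1 box. These shares describe letters in a window and were not tested.

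**Figure D1:**
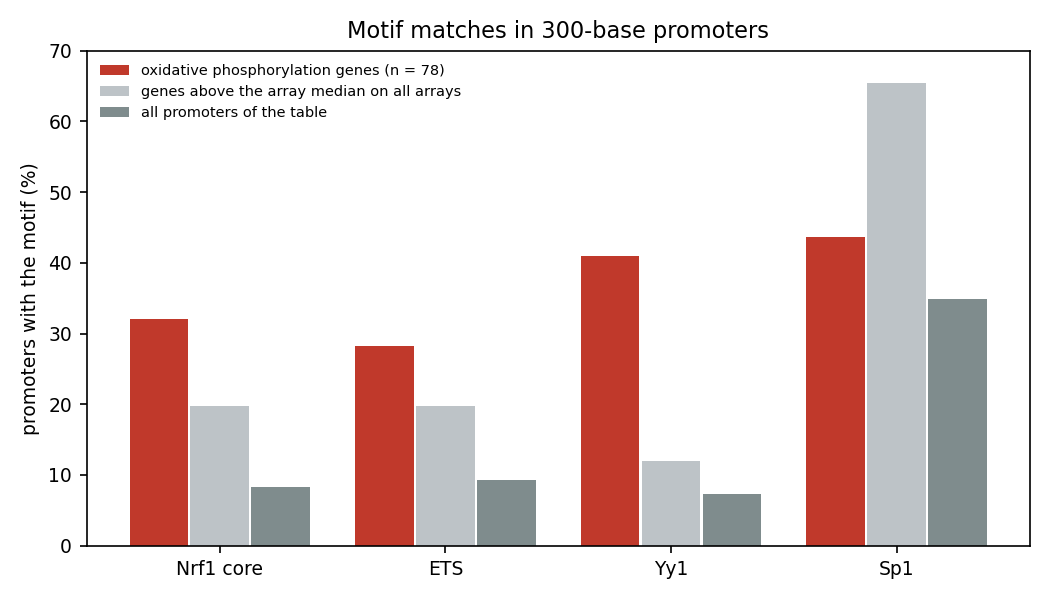
Share of 300-base promoters (y axis, percent) that held each of 4 motifs on either strand, for the 78 oxidative phosphorylation genes with a promoter (red), genes above the array median on all 12 arrays (light grey) and all promoters of the table (dark grey). The red bar is the highest for the Nrf1 core, the ETS site and the Yy1 site, and lies between the grey bars for the Sp1 box.

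The arrays were checked before the comparison. The 3 prime minus 5 prime differences of the actin, GAPDH and hexokinase control probe sets, which grow as RNA degrades, gave exact permutation p of 0.576, 0.463 and 0.433 between the groups. The mean of 16 arcuate neuron markers lay between 2.69 and 2.97 on 11 arrays, but was 0.91 in recuperated animal 4, which also had the highest mean of 6 ventromedial markers (3.15, against 0.15 to 1.51 elsewhere). Recuperated animal 5, with an arcuate mean of 2.76, did not stand apart in this way. Its mean of endothelial and mural markers was the lowest (0.32, against 0.38 to 1.03), but close to the 0.38 of recuperated animal 6. Counts over the members are also given without recuperated animals 4 and 5, a choice made once the data had been seen. With all animals the difference was negative for 14 of 16 arcuate markers (median -0.39), 10 of 11 tanycyte markers (-0.28) and 12 of 13 microglial markers (-0.22), whereas the median of 17 neuronal markers was 0.02. These values rested largely on recuperated animal 4: without it, 12 of 16 arcuate markers (median -0.06), 6 of 11 tanycyte markers (-0.09) and 10 of 13 microglial markers (-0.09) were negative, and so were 14 of 17 neuronal markers (-0.07). Other lists moved further from 0 without it. Oligodendrocyte markers went from 11 of 13 negative (median -0.09) to 13 of 13 (-0.21), and ventromedial markers from 1 of 6 (0.10) to 6 of 6 (-0.27). Their part in the values of the respiratory genes was not tested, and in dissected tissue fewer cells of a type and less RNA per cell cannot be told apart.

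Of the 86 genes, 1 rose past 1.3-fold with an unadjusted P under 0.05 in recuperated animals (1.16%, against 1.2% of all probe sets) and 0 fell past it (against 1.27%). The gene was Cox7a1, the muscle and heart form of a complex IV subunit. At any fold, 2 genes of complex I, Ndufb1 and Ndufa11, were lower with P under 0.05 (2.33%, against 2% of all probe sets) and 1 was higher (1.16%, against 1.45%), so that both shares of members lay near those of all probe sets. After limma's Benjamini-Hochberg adjustment over all probe sets none of the 86 passed 0.05 (0, against 0% of all probe sets). The 3 genes with an unadjusted P under 0.05 by limma each had an adjusted P of 0.999. The methods' t-test gave 5 of the 86 an unadjusted P under 0.05, but the share of all probe sets by that test was not computed. None of the 86 had recuperated and control values that did not overlap, against 0.139% of all probe sets.

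The differences were small and mostly of 1 sign. The log2 fold change was negative for 71 of the 86 genes (82.6%), against 56.6% of all probe sets and 61.6% of the 2632 genes with a mean of at least 3. The size of this shift was slight: the median over the 86 genes was -0.06, beside -0.03 over all probe sets, and the members spanned -0.33 to 0.65. Without subtraction of array medians the negative share was 73.3% of members and 52.1% of all probe sets. It was 80.2% and 56.3% without recuperated animal 4 alone, and 74.4% and 57.3% without recuperated animal 5 alone. With both of these animals left out it was 68.6% and 57.1%. In families of other widely expressed genes, 44 of 55 cytosolic ribosomal protein genes (80.0%, median -0.12) and 56 of 73 mitochondrial ribosomal protein genes (76.7%, median -0.06) were negative too. The members share the same 12 arrays, so the genes are not independent of each other and this count has no test. The 95% interval of the difference lay within 1.3-fold either way for 52 members (60.5%), against 19.6% of all probe sets and 52.1% of genes with a mean of at least 3, where 69.0% of the 71 members that bright had such an interval. For the other 34 members a change of 1.3-fold in at least 1 direction was within the interval.

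**Figure D2:**
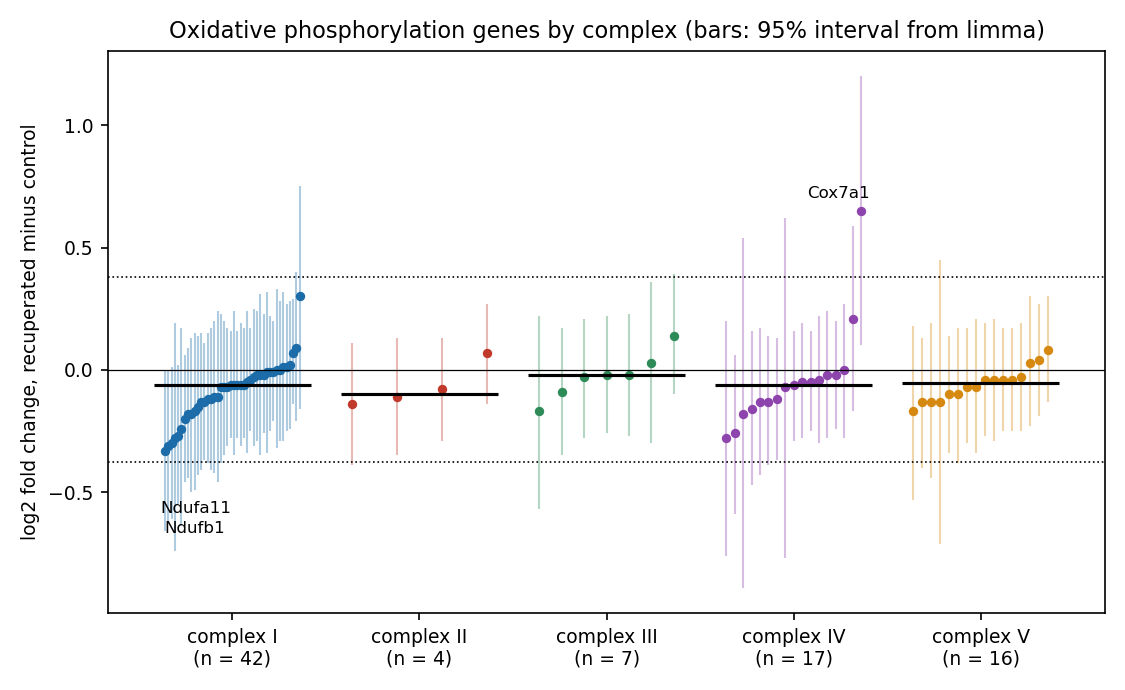
Log2 fold change of each of the 86 genes (y axis, recuperated minus control), grouped by complex on the x axis and ordered by size within it, with 95% intervals as thin bars, the median of each complex as a thick line and 1.3-fold either way as dotted lines. The 5 medians lie between -0.10 and -0.02, and the point of Cox7a1 at 0.65 stands apart from the others.

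Complex I, which takes electrons from NADH and is the largest of the complexes, held the 3 lowest fold changes. Of its 42 genes 35 were negative, with a median of -0.06, and 25 had an interval within 1.3-fold. The Ndufa group, mostly accessory subunits, was negative in 13 of 14 genes with a median of -0.10, and the Ndufb group, subunits of the membrane arm, in 9 of 11 with a median of -0.06. The Ndufs group, most of which carry the iron-sulphur clusters or surround them, had a median of -0.01, and 4 of 6 were negative.

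Ndufa11, an accessory subunit of the membrane arm, had levels of 2.69, 3.08 and 3.67 (lowest, median and highest of 6) in recuperated animals and of 3.25, 3.42 and 3.58 in control animals. Recuperated animals 2 to 6 lay below all control animals and recuperated animal 1 above them all. The difference was -0.33 ± 0.15 (SE; limma P = 0.0495; exact permutation p = 0.0498; control 1.26-fold over recuperated). Ndufb1, another accessory subunit of the membrane arm, had levels of 2.96, 3.14 and 3.31 in recuperated animals and of 2.93, 3.47 and 3.72 in control animals. Here control animal 5 was the lowest of all 12 and lay apart from the other control animals, which were at 3.32 or above. The difference was -0.31 ± 0.14 (SE; limma P = 0.0481; exact permutation p = 0.0498). Both P-values lay close to 0.05: when each array was left out in turn, the exact permutation p ran from 0.00216 to 0.0887 for Ndufa11 and from 0.00433 to 0.0931 for Ndufb1, whose differences passed 1.3-fold without recuperated animal 1 (-0.45, Ndufa11) and without control animal 5 (-0.41, Ndufb1). Neither passed P of 0.05 without subtraction of array medians (limma's unadjusted P of 0.0628 for Ndufa11 and 0.0582 for Ndufb1; adjusted P = 0.999 for both). Ndufb1 did not pass either with quantile normalization (limma's unadjusted P of 0.0607), array quality weights (0.0653) or the animal number as a block (0.0757).

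Ndufc1, a small accessory subunit, was at 2.69, 2.92 and 3.11 in recuperated animals and at 2.98, 3.13 and 3.68 in control animals. Of the recuperated animals, 3 lay below all the control animals, and the difference was -0.30 ± 0.14 (SE; limma P = 0.0541; exact permutation p = 0.0411). Ndufb11, an X-linked subunit of the membrane arm that was picked after its values were seen, was at 3.00, 3.46 and 3.55 in recuperated animals and at 3.49, 3.58 and 3.80 in control animals. Its 2 lowest values, 3.00 and 3.03, were those of recuperated animals 4 and 5, and its difference was -0.27 ± 0.13 (SE; limma P = 0.0634; exact permutation p = 0.0238).

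The core subunits of complex I differed less. Ndufv1, which binds NADH, averaged 3.94 ± 0.22 in recuperated animals and 3.97 ± 0.16 in control animals (SD, n = 6 each), and Ndufv2, its iron-sulphur partner, 3.64 ± 0.13 and 3.70 ± 0.09. For Ndufs1, the largest iron-sulphur subunit, the difference was 0.00 with an interval of -0.32 to 0.33, and for Ndufs3, in the arm that leads to ubiquinone, it was -0.01 with an interval of -0.25 to 0.22. Ndufs7 and Ndufs8, which carry the last clusters before ubiquinone, had differences of -0.18 (interval -0.50 to 0.13) and -0.07 (-0.38 to 0.23). The groups overlapped for each of these 6 core subunits, and all but Ndufs7 had an interval within 1.3-fold. Ndufs4, an accessory subunit whose loss causes fatal brain disease in mice, had the smallest P of the complex I subunits with a positive difference (0.07, interval -0.14 to 0.29; exact permutation p = 0.206).

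The most even member over the arrays was Ndufs6, an accessory subunit near the iron-sulphur clusters, which spanned 6.14 to 6.25 in recuperated animals and 6.13 to 6.27 in control animals. It too was named after its values were seen. Ndufa1, an X-linked subunit of the membrane arm, was at 6.92, 7.14 and 7.21 in recuperated animals and at 7.11, 7.15 and 7.21 in control animals. Among the assembly factors, Ndufaf7, a methyltransferase that acts on a core subunit during assembly in human cells, was higher by 0.30 without passing the test (1.11, 1.75 and 1.94 in recuperated animals; 0.89, 1.17 and 1.96 in control animals; exact permutation p = 0.221), and another probe set of this gene gave 0.35 (p = 0.0649). Ndufaf5, which hydroxylates Ndufs7 in human cells, differed by 0.09 (exact permutation p = 0.494). Ndufa4l2, a form that is induced by hypoxia, was below the array median on all 12 arrays, and 4 of 6 recuperated animals lay below all control animals (-1.96, -1.28 and -0.41 in recuperated animals; -1.18, -1.08 and -0.43 in control animals). Its difference was -0.28 (exact permutation p = 0.266).

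Complex II, which is also the succinate dehydrogenase of the citric acid cycle, had 4 genes and a median of -0.10. Sdha, the flavoprotein that oxidises succinate and whose promoter is printed above, was at 5.58, 5.70 and 5.76 in recuperated animals and at 5.56, 5.60 and 5.69 in control animals. It was positive, with 4 recuperated animals above all control animals and a difference of 0.07 ± 0.10 (SE; exact permutation p = 0.0866). Sdhb, the iron-sulphur subunit, was at 3.97, 4.06 and 4.16 in recuperated animals and at 4.05, 4.16 and 4.26 in control animals, and 3 recuperated animals lay below all control animals. Its difference was -0.08 ± 0.10 (SE; exact permutation p = 0.0844). The membrane anchors Sdhc and Sdhd differed by -0.11 and -0.14 (exact permutation p = 0.21 and 0.134). The intervals of Sdha, Sdhb and Sdhc lay within 1.3-fold, and that of Sdhd ran from -0.39 to 0.11. The subunits of this complex thus had differences of both signs, none past the test.

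Complex III, which passes electrons from ubiquinol to cytochrome c, had the median nearest to 0 (-0.02), with 5 of 7 genes negative. Uqcrc2, a core protein of the matrix side, was at 4.46, 4.74 and 4.80 in recuperated animals and at 4.32, 4.63 and 4.68 in control animals. Recuperated animals 1, 3, 4 and 6 lay above all the control animals, and the difference was 0.14 ± 0.12 (SE; exact permutation p = 0.134), whereas another probe set of the gene gave 0.00. Uqcrc1, its partner, differed by -0.02 with an interval of -0.27 to 0.23. Uqcrfs1, the Rieske iron-sulphur protein, spread most: it was at 2.66, 3.46 and 3.95 in recuperated animals and at 3.42, 3.53 and 3.84 in control animals. The lowest and the highest of the 12 values were both from recuperated animals (animals 1 and 2), and the difference was -0.17 ± 0.18 (SE; exact permutation p = 0.439). The small subunits Uqcr10, Uqcrq and Uqcrh differed by 0.03, -0.09 and -0.03.

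Complex IV, cytochrome c oxidase, held both the largest difference and the widest spread. Of its 17 genes 15 were negative (median -0.06). The widely used forms were far above the array median on every array. Cox4i1 differed by -0.05, Cox5a by -0.06, Cox5b by -0.02 and Cox6c by -0.05, each with an interval within 1.3-fold. Cox6a1 differed by -0.16 (interval -0.47 to 0.16), Cox6b1 by -0.13 (-0.39 to 0.14) and Cox8a by -0.13 (-0.43 to 0.17), so that a fall of 1.3-fold was within these intervals. The limma P of these forms lay between 0.302 (Cox6a1) and 0.836 (Cox5b). Cox7b, an X-linked subunit, was at 4.55, 5.14 and 5.49 in recuperated animals and at 5.20, 5.37 and 5.61 in control animals. Its lowest value was that of recuperated animal 5, 4 of 6 recuperated animals lay below all control animals, and the difference was -0.26 ± 0.15 (SE; limma P = 0.104; exact permutation p = 0.0844).

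Cox7a1, the muscle and heart form of the Cox7a subunit, lay close to the array median. It was at -0.20, 0.37 and 1.32 in recuperated animals and at -0.95, -0.11 and 0.52 in control animals. Its level was above the array median in 5 of 6 recuperated animals and in 1 of 6 control animals, and recuperated animals 2 and 5 lay above all control animals. The difference was 0.65 ± 0.26 (SE; interval 0.10 to 1.20; 1.57-fold; limma P = 0.0246; exact permutation p = 0.0433). The call rested on single animals: the difference was 0.49 without control animal 1 (limma P = 0.0627; exact permutation p = 0.0996), 0.59 without recuperated animal 2 (limma P = 0.0531; exact p = 0.0887) and 0.48 without recuperated animal 5 (limma P = 0.0602; exact p = 0.0931).

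Cox8b, the muscle form of the Cox8 subunit in rodents, was below the array median on all arrays. It was at -2.70, -2.35 and -0.25 in recuperated animals and at -2.13, -1.92 and -1.87 in control animals. Recuperated animal 5, at -0.25, lay far above the other recuperated animals, which were between -2.70 and -2.04, and it was the same animal that had the highest Cox7a1. Of the other recuperated animals, 4 lay below all the control animals. With all animals the difference was -0.07 ± 0.33 (SE, exact permutation p = 0.935). Without recuperated animal 5 it was -0.43 (limma's unadjusted P of 0.00614, exact permutation p = 0.00649), with an adjusted P of 0.995. The 9 markers of skeletal and heart muscle averaged -0.81 in recuperated animal 5 and between -1.29 and -0.82 on the other arrays, with differences over the groups that were negative for 7 of 9 (median -0.07), and their part in these values was not tested.

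The other tissue forms were dim and did not pass the test. Cox6a2, the muscle form of Cox6a, was above the array median on 2 of 12 arrays, both control, and differed by -0.28 (interval -0.76 to 0.20). Cox6b2, a testis form, was above it on 3 arrays and differed by 0.21 (-0.17 to 0.59). Cox4i2, the lung form that responds to oxygen, and Cox7b2, a testis form, were above it on none and differed by -0.18 (-0.89 to 0.54) and -0.02 (-0.28 to 0.24). The pseudogene Cox6c-ps1 was also below the median throughout, with a difference of 0.00, and its probes may share sequence with Cox6c, so its value is uncertain. Detection calls were not used here, and a level near or below the median of the array may be background. Cox7a2l, which joins complexes III and IV, and Ndufa4, counted by its symbol under complex I but a subunit of complex IV, differed by -0.04 and -0.06.

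**Figure D3:**
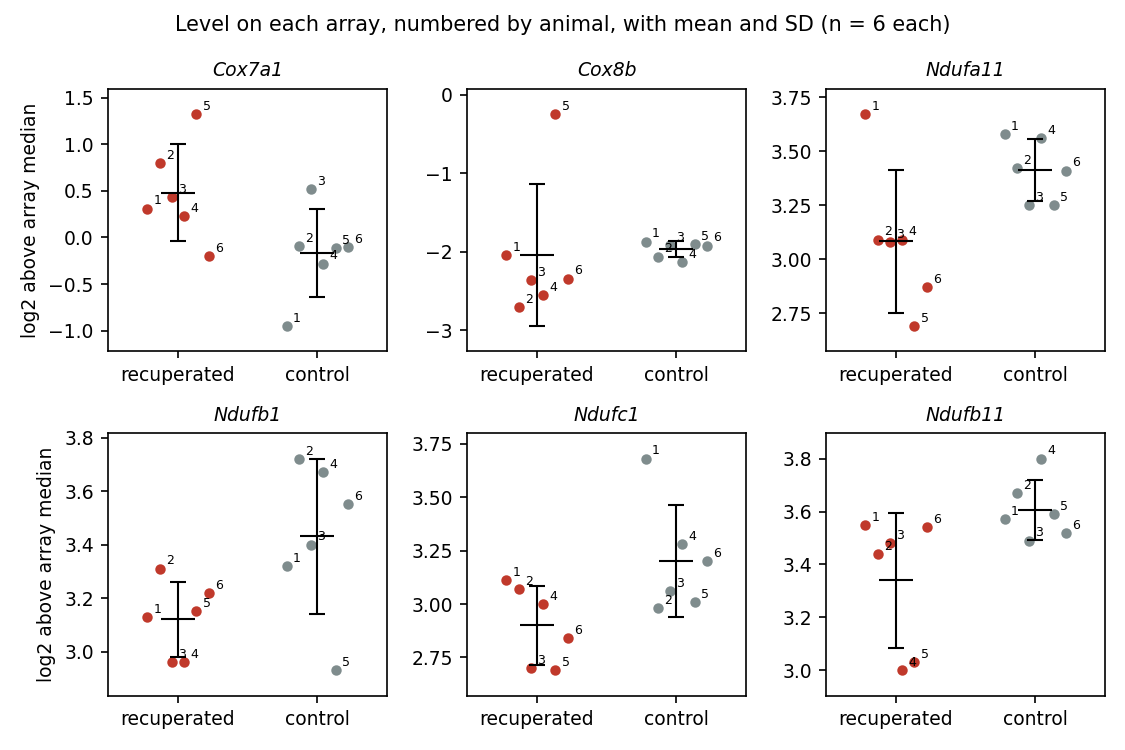
Level on each array (y axis, log2 above the array median) of 6 genes in recuperated (red, left) and control (grey, right) animals, with the animal number beside each point and the mean and SD (n = 6 each) in black. Recuperated animal 5 is the highest point for Cox7a1 (1.32) and Cox8b (-0.25) and the lowest for Ndufa11 (2.69), and the groups overlap in every panel.

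Complex V, the ATP synthase, had 16 genes, of which 13 were negative (median -0.05) and 11 had an interval within 1.3-fold. The catalytic head subunits Atp5f1a and Atp5f1b, which form the ring where ATP is made, differed by -0.07 and 0.03, and the rotor subunits Atp5f1c, Atp5f1d and Atp5f1e by -0.03, -0.17 and -0.13. Atp5f1b was at 5.38, 5.77 and 6.06 in recuperated animals and at 5.60, 5.71 and 5.83 in control animals, so that the lowest and highest values were both recuperated, from animals 5 and 4. Atp5f1d was at 2.94, 3.16 and 3.84 in recuperated animals and at 3.09, 3.46 and 3.69 in control animals. Of the recuperated animals, 3 lay below all control animals and animal 1 lay above them, and the limma P of the difference was 0.31.

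Of the stalk and the membrane part, Atp5pb, a subunit of the stalk that holds the head still, had the largest positive difference of this complex (0.08 ± 0.10, SE; exact permutation p = 0.141). Atp5po, which joins that stalk to the head, differed by -0.13 with 4.35, 4.76 and 4.89 in recuperated animals and 4.53, 4.77 and 5.22 in control animals. Atp5mc3, a gene for the proton-carrying ring, differed by 0.04, Atp5mf by -0.04 and the inhibitor Atp5if1, which blocks the enzyme from running backwards, by -0.10 (exact permutation p = 0.251). The widest spread in the complex was that of Atp5mg, a membrane subunit named after its values were seen, with 3.47, 4.54 and 4.85 in recuperated animals and 3.63, 4.65 and 5.13 in control animals. Its lowest values, in recuperated animal 3 and control animal 5, came from both groups.

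Across the arrays, the level of the members varied between animals within both groups. The mean of all 86 genes was at 3.82, 3.91 and 4.04 in recuperated animals and at 3.84, 3.99 and 4.09 in control animals, which overlap. Recuperated animal 5 had the lowest value of the 12 for 27 of the 86 genes, control animal 5 for 15 and recuperated animal 4 for 13, and recuperated animal 1 had the highest value for 20, control animal 4 for 16 and control animal 1 for 14. In recuperated animal 5, 34 of 42 complex I genes, 4 of 4 complex II genes and 13 of 16 complex V genes lay below the median of the 12 arrays, as did 5 of 7 in complex III and 11 of 17 in complex IV. In control animal 5 it was 26 of 42 in complex I, 1 of 4 in complex II, 6 of 7 in complex III, 13 of 17 in complex IV and 12 of 16 in complex V. In recuperated animal 6, which had the lowest value for 4 genes, it was 31 of 42 in complex I and 3 of 4 in complex II. It was 4 of 7 in complex III, 14 of 17 in complex IV and 13 of 16 in complex V. Most genes of each complex were thus on the low side in recuperated animals 5 and 6 and control animal 5, except complex II of control animal 5. Complex IV of recuperated animal 5 includes its high Cox7a1 and Cox8b. The 3 prime minus 5 prime differences of recuperated animal 5 were 1.52 for actin, 1.77 for GAPDH and 0.42 for hexokinase. All recuperated arrays, this one included, spanned 1.04 to 1.96, 1.77 to 2.63 and -0.14 to 0.5. The part of RNA quality in the levels of recuperated animal 5 was not tested. Single genes spanned 0.14 (Ndufs6) to 2.45 (Cox8b) over the 12 arrays, with a median of 0.59, and 74 of 86 spanned less than 1.

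**Figure D4:**
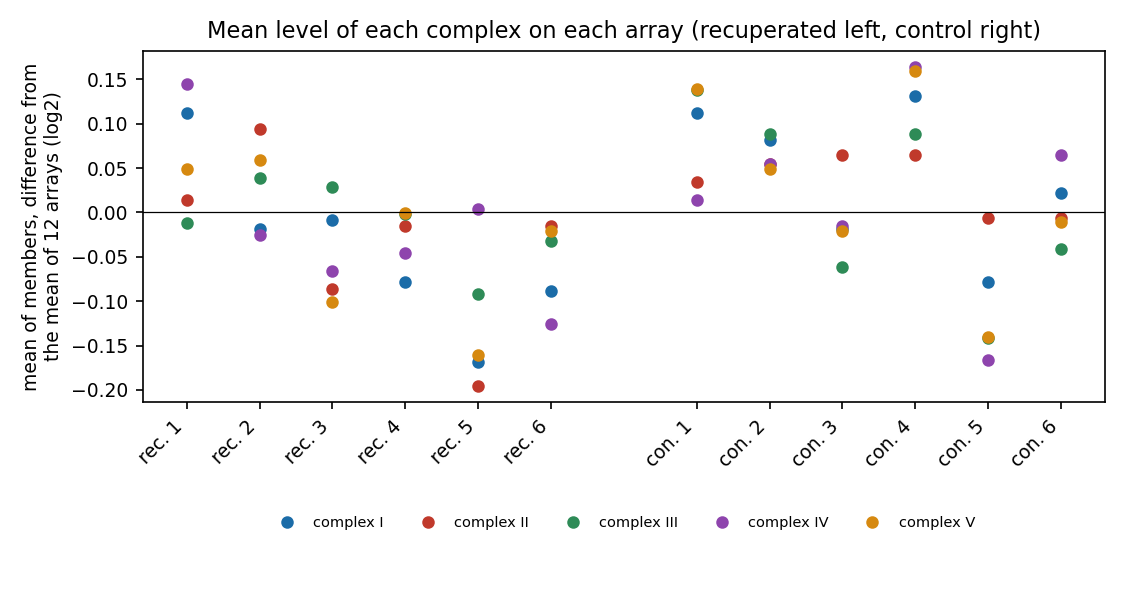
Mean level of the genes of each complex on each array (y axis, log2, as the difference from the mean of the 12 arrays), with recuperated animals on the left and control animals on the right. Recuperated animal 5 and control animal 5 are low in most complexes and control animal 4 is high in all 5, so the ranges of both groups overlap in every complex.

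The rest of the pathway was compared with the same fit. Of 41 assembly factors of the respiratory complexes 27 were negative (median -0.03), and of 16 genes of the citric acid cycle and related enzymes 12 (median -0.05). Of 9 other electron carriers and oxidising enzymes 6 were negative (median -0.10). Of 18 mitochondrial carriers, pores and related proteins, uncoupling proteins included, 9 were negative (median 0.00). In these 4 lists 0 genes had an unadjusted limma P under 0.05, against 2% of all probe sets lower and 1.45% higher. COX1 and COX2, the 2 mitochondrially encoded complex IV genes on the arrays by symbol, differed by -0.03 and -0.06, both with an interval within 1.3-fold. Of 22 regulators of mitochondrial biogenesis 11 were negative. Pprc1, a coactivator of the PGC family, was higher by 0.34, which is short of 1.3-fold (1.63 ± 0.20 in recuperated animals and 1.29 ± 0.32 in control animals, SD, n = 6 each). Its limma P was 0.0478 unadjusted and 0.999 adjusted, and its exact permutation p was 0.0519. It was the only gene of the 22 with an unadjusted limma P under 0.05, against 1.45% of all probe sets higher. The genes of the factors whose motifs were searched, named for that reason, differed by -0.02 (Nrf1), 0.03 (Gabpa, a GABP subunit), 0.12 (Yy1) and -0.15 (Sp1), with limma P of 0.919, 0.928, 0.40 and 0.393.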

How the data were processed

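RNA from laser-captured ARC was amplified and hybridised to Affymetrix rat genome arrays. The deposited log2 values were computed by the authors with RMA, which corrects background, quantile-normalizes the probes and summarises them by median polish; per the labels' processing notes Affymetrix Expression Console was used, its version not given in the sources used here, and the methods describe RMA in GeneSpring. RMA gives all arrays 1 distribution, so a shift shared by all genes cannot be seen in these values. GC-RMA and GCOS values were not analysed here.

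Each array's median over 31042 probe sets was subtracted, after 57 Affymetrix controls had been removed. Groups were compared with limma 3.58.1 (lmFit, eBayes; R 4.3.3) without covariates, and P-values were adjusted by Benjamini-Hochberg over the 31042 probe sets; a gene passed the methods' threshold at 1.3-fold and an unadjusted P under 0.05. Named genes were also given an exact permutation test (two-sided), with 924 arrangements of the 12 arrays and a smallest possible p of 0.00216. Tables and plots were made in Python 3.11.15 (pandas 2.3.3, numpy 2.4.6, matplotlib 3.10.9). P-values measure the spread between animals. Arrays give no read depth, and their number limits the precision.

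Symbols came from the platform annotation, in which 20826 probe sets had 1 symbol. Of the 86 genes, 9 had more than 1 probe set, and all 86 matched RefSeq by gene ID. For 8 there was no promoter in the table used here. The sources used here give no build for the arrays, and the only coordinates are those of the promoters, on GRCr8.

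The members, gene lists, tests and the genes to be named were chosen with earlier results of these data known. The rule named, in complexes I, III, IV and V, the 3 positive and 3 negative genes with the smallest limma P, and all of complex II. It also named every gene with P under 0.05, the core subunits and the tissue forms, and the 3 highest, 3 lowest and 3 most variable genes. From the other lists it allowed only the 2 brightest genes and those with P under 0.05. Ndufb11, Ndufs6, Atp5mg, Atp5if1, Nrf1, Gabpa and Sp1 lie outside it. Cell type marker lists were neurons, astrocytes (5 of 11 positive, median -0.06), oligodendrocytes (2 of 13, -0.09), microglia, endothelium and mural cells (7 of 13, 0.01), tanycytes and ependyma, arcuate, ventromedial (5 of 6, 0.10) and other hypothalamic neurons (3 of 11, -0.12), and muscle. Without recuperated animal 4, 13 of 13 oligodendrocyte (median -0.21) and 6 of 6 ventromedial markers (-0.27) were negative.

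Alternatives changed the scaling (array medians kept, or quantile normalization), the probe sets (dim ones left out, or the mean of a gene's probe sets), the test (the methods' t-test, array weights, a block for the animal number), the arrays (each left out once), the fold (linear means) and the membership. Leaving out recuperated animals 4 and 5 together was added once the data had been seen. On simulated data for recuperated against control the fit was tested as follows: of 50 probe sets changed by a log2 of 0.5, 1, 2 or 3 among 31042, it recovered 1, 36, 47 and 50 at adjusted P of 0.05, and 9 unchanged probe sets were called.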

Additional observations from a re-analysis of the deposited data

Results flagged for a closer look

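In groups of 6 animals, 7 of 110 tested groups held a value far from the other 5 (Dixon's test), and chance gives about 1 in 20. Recuperated animal 5 was low for Atp5f1c, the rotor shaft of the ATP synthase (5.57, against 5.83 to 5.89 in the other recuperated animals), and for Atp5po of the stalk (4.35, against 4.72 to 4.89), and high for Cox8b (-0.25, against -2.70 to -2.04). Recuperated animal 1 was high for the complex IV subunits Cox4i1 (5.95, against 5.65 to 5.75) and Cox6b1 (5.90, against 5.42 to 5.58). Recuperated animal 3 was low for Ndufa1 (6.92, against 7.13 to 7.21). Control animal 3 was low for the complex I core subunit Ndufs7 (3.10, against 3.44 to 3.60 in the other control animals). Over all members, in 2 groups each, 15 of 172 groups held such a value.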

How the results depend on the processing

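The count of members past adjusted P of 0.05 was 0 under every alternative run. The count past 1.3-fold with P under 0.05 was 1 in the fit reported and ranged from 0 to 3 when each array was left out in turn, with 0 to 1 higher and 0 to 2 lower. With array quality weights 0 were higher and 0 passed in all (Cox7a1 0.57, limma's unadjusted P of 0.0546, adjusted P = 0.937). Without recuperated animals 4 and 5 together 0 were higher (Cox7a1 0.50, exact permutation p = 0.124) and 1 was lower (Cox8b -0.40, exact p = 0.0143). Without control animal 5 Ndufb1 was added, without recuperated animal 1 Ndufa11 and Ndufa4l2, and without recuperated animal 5 Cox8b alone passed. Leaving out 1 array kept 64 to 72 negative members and a median over all members of -0.09 to -0.04. The median of complex III ran from -0.07 to 0.01 and so turned sign, whereas those of the other 4 complexes stayed negative under every alternative run. With folds from linear means Cox8b was 0.23. Of 50 members named by rule, 16 changed sign under at least 1 setting, none past the threshold under that setting, with a difference of at most 0.18 in the fit reported. The causes of these shifts were not tested. Animals with the same number in both groups are not stated to be related, and their deviations correlated at -0.162 to 0.0795. With the animal number as a replicate block 71 members were negative and 1 passed 1.3-fold with P under 0.05 (Cox7a1, limma's unadjusted P of 0.0187, adjusted P = 0.999), the same gene as without it, while Ndufb1, lower at any fold, no longer had P under 0.05 (unadjusted P of 0.0757). The signal of dim probe sets limits what can be said of Cox8b, Cox4i2, Cox7b2, Cox6c-ps1 and Ndufa4l2. The same limit holds for Cox7a1, Cox6a2 and Cox6b2, which lay near the array median.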
